A study of Homo sapiens with 2 samples.

Results

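The miR-148 and miR-152 family groups miR-148a, miR-148b and miR-152, which come from 3 separate loci and share 1 seed. Its entries were found by name in the deposited table of mature miRs, after dropping the species prefix, any trailing asterisk and any arm suffix, and 5 of the 934 names belonged to it: miR-148a, miR-148a*, miR-148b, miR-148b* and miR-152. The table compares K562/ADM, an adriamycin-resistant variant derived from K562 under rising doses of this anthracycline and then kept in 1000 ng/mL of it, with K562, the untreated human chronic myelogenous leukemia line. There was 1 small RNA library for each line, so no difference has a replicate check, no p-value was computed, and the comparison is between these libraries. K562/ADM is 1 selected line, in which the lasting effect of selection and the drug present in the medium cannot be told apart.

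A miR guides the Argonaute protein to messenger RNAs that pair with its seed, the bases near its 5' end, and lowers their translation or stability. MiR-148a and miR-152 are known for repressing DNMT1, the enzyme that copies DNA methylation onto newly made strands, and miR-148 has also been reported to act on DNMT3B, which sets new methylation marks. Members with a shared seed can in principle act on the same messenger RNAs, and the loci differ in when and where they are transcribed.

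The mature sequences show how close the members are, and their seeds (bases 2 to 8) are in capitals. They were taken from the RefSeq miR table on GRCh38.p14, in which the 3 hairpins and 5 of their mature sequences were matched, but not miR-148a-5p.
miR-148a-3p: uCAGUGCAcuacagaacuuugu
miR-148b-3p: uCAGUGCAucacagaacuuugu
miR-152-3p: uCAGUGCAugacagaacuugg
The names without an asterisk are these 3' arms. Among the 2370 mature names of that table, the seed CAGUGCA occurs in these 3 alone. Counted from the 5' end, miR-148a-3p and miR-148b-3p are identical at 20 of 22 bases and differ by C9U and U10C. MiR-148b-3p and miR-152-3p share 19 of 21 bases, with C10G and U20G, and miR-152-3p is 1 base shorter. MiR-148a-3p and miR-152-3p share 18 of 21 bases. The members are thus told apart by the bases just after the seed and, for miR-152, by the 3' end. The sources used here do not say how mismatches at those bases were treated in the mapping to miRBase, and an exchange of reads between members was not tested.

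The arms on the 5' side, which the table marks with an asterisk, do not share the family seed. Their sequences are shown because their seeds differ from that of the family and from each other.
miR-148b-5p: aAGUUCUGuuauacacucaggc
miR-152-5p: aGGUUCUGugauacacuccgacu
These 2 sequences are identical at 18 of 22 positions, and the difference A2G lies within the seed. MiR-148a* stands for miR-148a-5p, whereas miR-152 was represented in the table by 1 name, for its 3' arm.

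The 3 genes lie on different chromosomes. On GRCh37, MIR148A lies on the minus strand at chr7:25989539-25989606, outside protein-coding genes, with NFE2L3 the nearest at 202 kb. MIR148B lies on the plus strand at chr12:54731000-54731098 in an intron of COPZ1, and MIR152 on the minus strand at chr17:46114527-46114613 in an intron of COPZ2, both in the sense of the host. COPZ1 and COPZ2 are paralogs that encode the zeta subunits of the coatomer, a coat of transport vesicles. Each miR gene stands near a HOX cluster, MIR148A 1.14 Mb from HOXA, MIR148B 281 kb from HOXC and MIR152 491 kb from HOXB.

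The names of the table summed to 6895193 reads in K562/ADM and 7677738 in K562, recovered as whole reads from the deposited values. These are the reads assigned to miRs, 22.0% of all reads of the K562/ADM library and 28.0% of those of the K562 library, and miR-378 alone took 53.1% and 50.6% of the assigned reads. Blood and erythroid miRs were abundant in both, with 517063 and 362072 reads for miR-142 and 43024 and 49826 for miR-144, while miR-122 of liver had 4 reads in each. Scaled reads are reads divided by a size factor for the library (median of ratios). The ratio of K562/ADM to K562 is given with an exact 95% interval (Clopper-Pearson), which covers counting error only. Calls required a difference of 2-fold or more with an interval that left out 1. Of all 934 names, 15.6% were called lower and 11.1% higher, and of the 429 names whose reads summed to 50 or more over the libraries, as those of the 5 family names did, 24.2% and 14.5%. Many of the lower calls came from the 90 names of the imprinted domain 14q32, which holds no family gene. Of the 844 names outside it, 69 were called lower and 104 higher. The calls depend on the scaling, since upper-quartile scaling raised every log2 ratio by 0.74 and turned the split of 146 lower and 104 higher names into 95 and 223. Scaling by all reads of the library, which was added after the data were seen, shifted every log2 ratio by -0.49 and gave 218 lower and 68 higher.

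The family did not move as 1 block. MiR-152, its scarcest member, was 2.31-fold higher in K562/ADM, while the abundant miR-148a and miR-148b were within 2-fold, both on the lower side except under upper-quartile scaling. By all reads of the library the ratio of miR-152 was 1.65, short of a call. Of the 5 names, 1 was called higher and 0 lower, against the 11.1% and 15.6% of all names above. With so few names, this share cannot be set apart from the background.

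MiR-148a was the most abundant member in each library. It had 2419 reads in K562/ADM and 3218 in K562, or 2677 and 2908 scaled reads, which ranked it 79th and 77th among the names. Its ratio was 0.921 (95% interval 0.873 to 0.971). The interval excluded 1 and the difference was small, and the ratio was 1.54 under upper-quartile scaling and 0.657 by all reads of the library.

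MiR-148b was close behind, with 1737 reads in K562/ADM and 2951 in K562. These were 1922 and 2667 scaled reads, and its ratio was 0.721 (0.679 to 0.765), or 1.21 under upper-quartile scaling and 0.514 by all reads of the library. In K562 both miR-148 members stood nearly level, with 1.09 reads of miR-148a for each read of miR-148b, and in K562/ADM there were 1.39.

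MiR-152 had 202 reads in K562/ADM and 107 in K562, so that it was higher in K562/ADM before scaling too. This gave 224 and 96.7 scaled reads, 195th and 294th among the names, and a ratio of 2.31 (1.82 to 2.95). The call held under 6 of 7 scalings, from 2.10-fold with the total of the table to 3.87-fold with the upper quartile. By all reads of the library the ratio was 1.65 (1.30 to 2.10), above 1 but not called, and the lower end of the interval was under 2-fold with the median of ratios as well. MiR-148a had 12.0 reads for each read of miR-152 in K562/ADM and 30.1 in K562, so that miR-152 was the minor member in both.

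**Figure D1:**
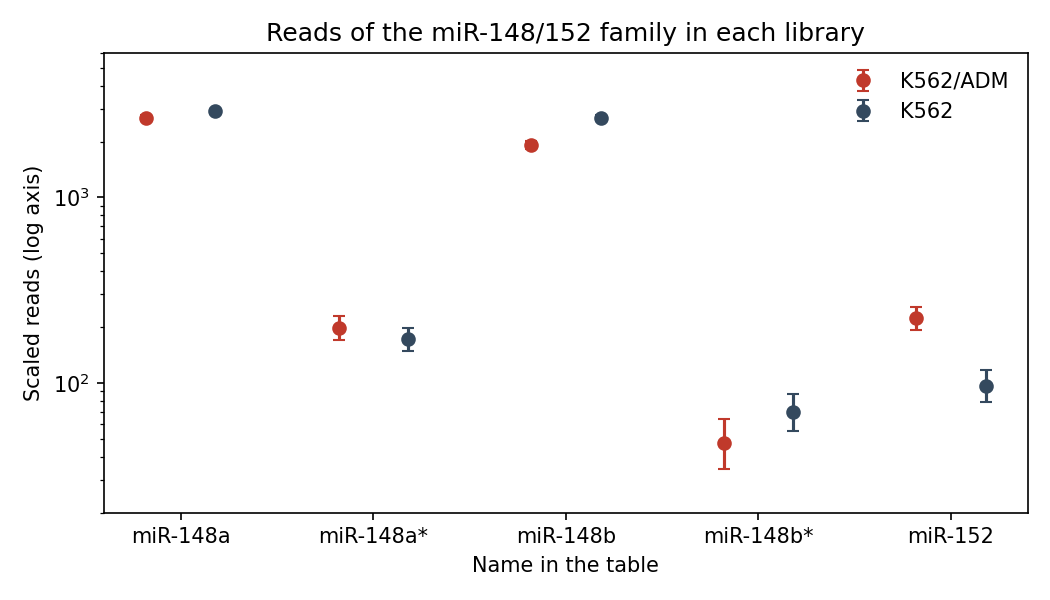
Scaled reads of the 5 family names (log axis) in K562/ADM (red, left of each pair) and K562 (dark, right). Points are single libraries and bars are exact 95% Poisson intervals of the reads. The bars of miR-152 run from 194 to 257 in K562/ADM and from 79.2 to 117 in K562, while those of miR-148a* and of miR-148b* overlap between the libraries.

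Comparing members within the libraries removes the scaling, since a size factor acts alike on every name. The ratio of miR-152 was 2.51 times that of miR-148a (exact conditional 95% interval 1.96 to 3.22) and 3.21 times that of miR-148b (2.50 to 4.12). The ratio of miR-148b was 0.783 times that of miR-148a (0.723 to 0.848). All 3 members therefore differed from each other in how they stood in K562/ADM against K562, by more than their counting error. Without replicates, the spread between libraries of 1 line is not known, and a difference as small as that between miR-148b and miR-148a cannot be judged against it.

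**Figure D2:**
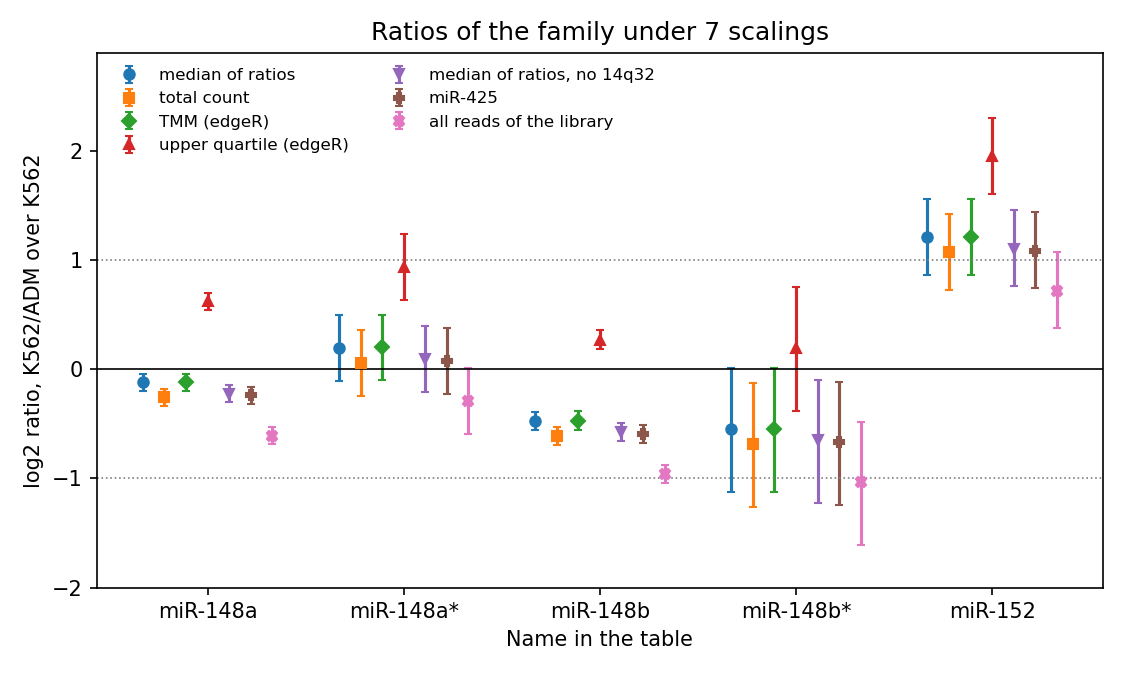
Log2 ratio of K562/ADM to K562 for the 5 family names under 7 scalings (symbols), with 95% counting intervals as bars. Equality is drawn as a solid line and 2-fold as dotted lines. MiR-152 lies above 0 under every scaling drawn and above the upper dotted line except by all reads of the library (1.65), and the upper quartile puts the other 4 names above 0 as well.

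The asterisked arms were scarcer, and with the median of ratios both intervals held 1 and neither name was called. MiR-148a* had 179 reads in K562/ADM and 191 in K562, a ratio of 1.15 (0.931 to 1.41) that was 0.819 by all reads of the library. MiR-148b* had 43 and 77 reads, a ratio of 0.684 (0.460 to 1.01), or 1.14 under upper-quartile scaling. By all reads of the library it was 0.488 (0.328 to 0.718) and the 1 family name called lower.

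The share of a hairpin's reads on the asterisked arm was higher for miR-148a than for miR-148b. For miR-148a it was 6.89% in K562/ADM (exact 95% interval 5.95 to 7.93) and 5.60% in K562 (4.85 to 6.43). For miR-148b it was 2.42% (1.75 to 3.24) and 2.54% (2.01 to 3.17), so that the intervals of the hairpins did not overlap in either library. For comparison, hairpins with a plain and an asterisked name and at least 50 reads in each library were taken. Those whose arms are named -5p and -3p were left out. Over the 80 hairpins so taken, the median share was 2.49% in K562/ADM and 3.02% in K562. The miR-148b hairpin thus stood near the middle of this set, with 39 and 38 of the 80 below it, and miR-148a somewhat higher, with 50 and 47 below it. Between the libraries the arms of miR-148b moved together, the ratio of miR-148b* being 0.949 times that of miR-148b (0.634 to 1.40). The ratio of miR-148a* was 1.25 times that of miR-148a (1.00 to 1.55), at the edge of its counting error.

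The shared seed was carried mainly by the miR-148 members in both libraries. The 3 names with the seed had 4358 reads together in K562/ADM and 6276 in K562, a ratio of 0.850 (0.818 to 0.884) that was 0.607 by all reads of the library, 0.773 with the total of the table and 1.42 with the upper quartile. Of these reads, miR-148a supplied 55.5% in K562/ADM (exact 95% interval 54.0 to 57.0) and 51.3% in K562 (50.03 to 52.5). MiR-148b supplied 39.9% (38.4 to 41.3) and 47.0% (45.8 to 48.3). The part of miR-152 was 4.64% (4.03 to 5.30) and 1.705% (1.40 to 2.06). With the asterisked arms counted in, the parts of miR-152 were 4.41% and 1.64%. The intervals of each member did not overlap between the libraries, and the gain of miR-152 was small beside the reads of the other two. With all 5 names counted, the family took 0.0664% of the reads assigned to miRs in K562/ADM and 0.0852% of those in K562.

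**Figure D3:**
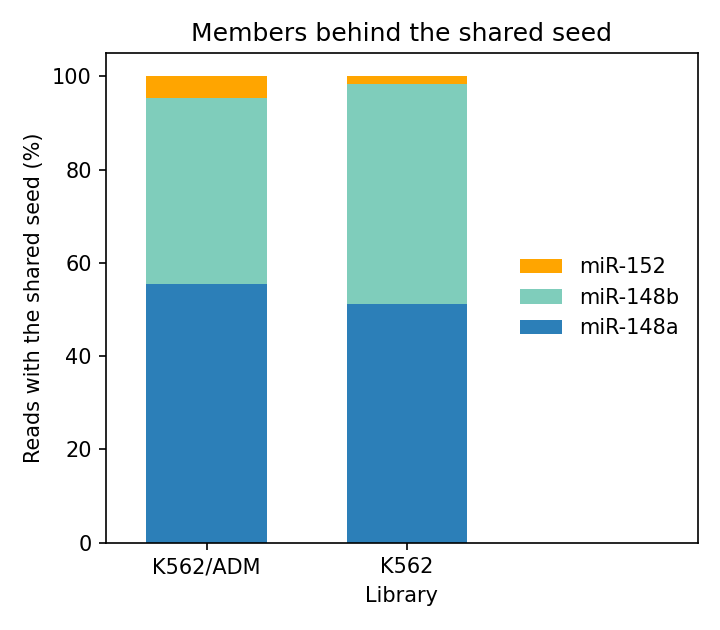
Share in percent of the reads with the family seed that each member supplied, in K562/ADM (left bar) and K562 (right bar), names with an asterisk left out. MiR-152 makes up 4.64% of the left bar and 1.705% of the right one, and miR-148a is the largest part of both.

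A match to the seed was looked for in the 3'-UTRs of the DNA methyltransferase genes and of ABCB1, the current name of MDR1, which encodes the drug efflux pump P-gp and was the gene of interest in the study. The letters searched, on the strand of the transcript, were TGCACTG, which pairs with bases 2 to 8, and GCACTGA, which pairs with bases 2 to 7 and has an A opposite base 1, and where these overlap they form TGCACTGA, counted once. DNMT1 held 1 such match and it was the 8-letter form. It starts at nucleotide 48 of the 321-nt 3'-UTR of DNMT1-202, at chr19:10244288-10244295 on the minus strand of GRCh37, and is shown in capitals within the 30 bases of chr19:10244277-10244306.
DNMT1 3'-UTR: aatccccaacaTGCACTGAtgttgtgtttt
Among the 1882 3'-UTRs with 75 to 125% of this length, 4.25% held some match and 0.956% the 8-letter form, against 19.1% and 4.22% of all 19066. The 3'-UTRs of DNMT3A (6405 nt), DNMT3B (1453 nt) and ABCB1 (1226 nt) had 0 matches to any of these letters, while some match was present in 51.3%, 19.2% and 17.1% of 3'-UTRs of similar length. Coding sequences were not searched, so the 0 matches, that of DNMT3B included, say nothing of sites there. A match describes sequence and does not show targeting, and messenger RNA was not measured in these libraries.

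Other miRs reported to act on DNA methyltransferase messenger RNAs give a context for the family. The list held miR-29a, miR-29b and miR-29c (DNMT3A and DNMT3B), miR-143 (DNMT3A) and miR-126, miR-185 and miR-342 (DNMT1), with each of their arms, or 17 names. The variant spellings mir-126* and mir-185* count as names of their own beside miR-126* and miR-185*. Of the 17 names, 3 were called higher and 0 lower, beside the 11.1% and 15.6% of all names, and 14 were not called. The median log2 ratio of the 15 names with at least 10 reads was 0.29, against -0.08 for the 604 such names of the table and -0.12 for the family. Over the 530 such names outside 14q32 it was 0.08. Under upper-quartile scaling 9 of the 17 were called higher, beside 223 of all 934 names. By all reads of the library 2 were called higher and 1 lower, with a median of -0.19, beside 68 higher and 218 lower of all names.

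The names of this list stood on both sides of equality. MiR-126, a miR of endothelial and blood-forming cells, was the most abundant and had 18177 reads in K562/ADM and 38960 in K562, a ratio of 0.571 (0.561 to 0.582) that was 0.408, and called lower, by all reads of the library. Its other arm, miR-126*, had 17962 and 18424 reads, a ratio of 1.19 (1.17 to 1.22). The name spelled mir-126* had 26 and 45 reads, a ratio of 0.708 (0.419 to 1.17). For miR-185 there were 18042 and 20010 reads, or 1.10 (1.08 to 1.13). MiR-29b was about as abundant as miR-148a, with 3453 and 3512 reads and a ratio of 1.20 (1.15 to 1.26). The 3 names called higher, singled out after their values were seen, were miR-143 at 7.68-fold (6.62 to 8.94), miR-29c at 2.22-fold (1.82 to 2.72) and miR-29b-2* at 4.90-fold (1.78 to 16.7), the last from 20 reads and 5. MiR-29c, with 279 reads in K562/ADM and 154 in K562, thus stood beside miR-152 in both level and ratio, while its abundant paralogs miR-29a (0.863, 0.779 to 0.956) and miR-29b were within 2-fold, as miR-148a and miR-148b were, except that miR-29b reached 2.02 under upper-quartile scaling. By all reads of the library miR-29c stood at 1.58, and miR-126*, miR-185 and miR-29b lay on the lower side at 0.852, 0.788 and 0.859.

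The miRs encoded within the HOX clusters were compared because the family loci lie near HOXA, HOXB and HOXC. MIR10B, also listed, is on chromosome 2, which holds no family locus. Of the 9 names of miR-10a, miR-10b, miR-196a, miR-196b and miR-615, 4 were called higher and 0 lower, again beside 11.1% and 15.6% of all names. The median log2 ratio was 1.13, over 5 names with at least 10 reads. Of the 4 called names, 2 rest on few reads, miR-10b on 10 and 3 and miR-196b on 7 and 1. Scaling by the total of the table left 2 called higher, beside 93 of all 934 names. These 2 were miR-196a at 4.76-fold and miR-196b at 7.79-fold (1.001 to 351). Under this scaling miR-10a fell just short of 2-fold, at 1.99, and the interval of miR-10b held 1 (0.956 to 21.0). By all reads of the library only miR-196a was called, at 3.74-fold, beside 68 of all names called higher. MiR-10a then stood at 1.56, and the intervals of miR-10b and miR-196b held 1.

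MIR10A and MIR196A1 belong to the HOXB cluster, on chromosome 17 with MIR152. MiR-10a had 18492 reads in K562/ADM and 10324 in K562, a ratio of 2.19 (2.14 to 2.25), close to that of miR-152. The ratio of miR-10a was just short of 2-fold with the total of the table, at 1.99, and 1.56 by all reads of the library. MiR-10a* had 63 reads in K562/ADM and 53 in K562, which gave 1.46 (0.994 to 2.14). MiR-196a was 5.24-fold higher (4.48 to 6.15), with 847 reads in K562/ADM and 198 in K562. It is made from MIR196A1 and also from MIR196A2 of the HOXC cluster on chromosome 12, and the table does not tell these apart. MiR-615-3p, likewise from the HOXC cluster and so on the chromosome of MIR148B, stood at 0.925 (0.587 to 1.45), from 37 reads in K562/ADM and 49 in K562. A relation between the family and its HOX neighbours was not tested, since each locus gives 1 value per library.

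**Figure D4:**
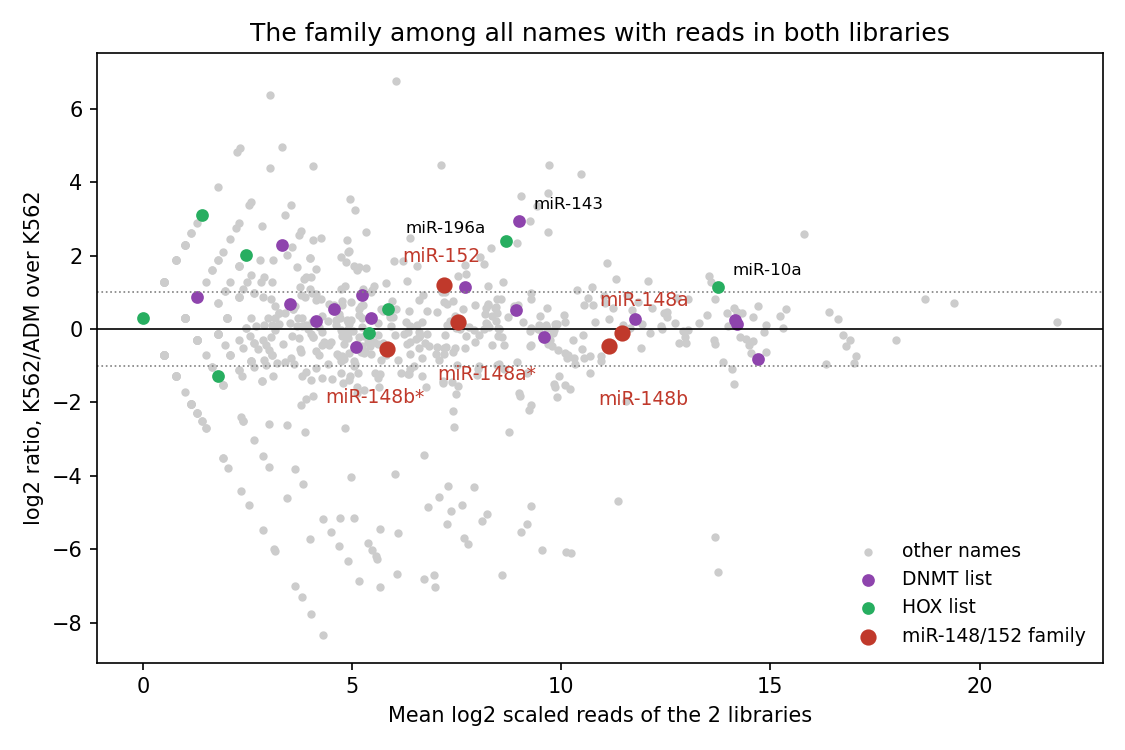
The y axis is the log2 ratio of K562/ADM to K562 and the x axis the mean log2 scaled reads of both libraries, for the 709 names with reads in each, scaled by the median of ratios. Red points are the family, purple the list of other miRs reported to act on DNA methyltransferases, green the HOX cluster miRs and grey the other names, with equality as a solid line and 2-fold as dotted lines. MiR-152 lies above the upper dotted line with miR-10a and miR-196a, and the other 4 family names lie between the dotted lines.

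The names most like each member, by the distance between log2 values (scaled reads with 1 added) over the 2 libraries, came from many loci. For miR-148a these were let-7a, with 2698 reads in K562/ADM and 3056 in K562, and miR-26b, with 2933 and 3532. For miR-148b they were miR-223*, with 1736 and 3042 reads, at a distance of 0.04, and miR-151-5p, with 1375 and 2823. MiR-152 stood nearest to miR-186*, with 195 and 110 reads and a ratio of 2.17 (1.71 to 2.77), and to miR-16-1*, with 192 and 117 reads and a ratio of 2.01 (1.59 to 2.55). For miR-148a* the nearest were miR-15b* and miR-3180-5p, and for miR-148b* they were miR-1255b and mir-135a-1*. With only 2 libraries, this likeness says no more than that a name had a similar level in each.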

How the data were processed

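Small RNA of K562/ADM and K562 cells was sequenced in 1 library each. The authors collapsed the reads, omitted singletons, mapped with Bowtie in miRanalyzer to miRBase and divided counts by DESeq size factors. CASAVA 1.7.0 and hg18 are named in the submitters' processing notes. The deposited signal is thus a normalized read count. Names with exactly 1 read were listed (124 in K562/ADM and 100 in K562), so the level at which singletons were omitted is not clear from the table. The table also holds the authors' fold changes, their log2 and p-values, which were not used.

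Whole reads were recovered for 100% of the values (tolerance 0.001), as multiples of the lowest positive value of each column. Ratios were formed after median-of-ratios scaling over all 934 names, with exact intervals (scipy 1.17.1). With 1 library per line, dispersion cannot be estimated from replicates, and no count model was used here. The procedure was checked on simulated data with counting error alone and changes well past 2-fold in both directions. That check says nothing of the spread between libraries of 1 line or of calls near 2-fold. Every family name was named, and up to 4 of the most abundant names of each list and the 2 nearest names of each member, and miR-425, the study's qPCR reference (28536 reads in K562/ADM, 32165 in K562), with further names given where a count rested on them. The members and lists were chosen with earlier results of these data known. Alternatives were other scalings (TMM and upper quartile from edgeR 4.0.16 in R 4.3.3), call rules, read minimums and denominators. Scaling by all reads of the library, with the totals the study gives, was chosen after seeing the data. 3'-UTRs came from canonical GENCODE transcripts on GRCh37. Python 3.11.15, numpy 2.4.6, pandas 2.3.3 and matplotlib 3.10.9 were used.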

Additional observations from a re-analysis of the deposited data

How the results depend on the processing

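MiR-152 stayed at least 2-fold higher in K562/ADM under 6 of 7 scalings and with 1 added to the scaled values. It was not called when the whole interval had to pass 2-fold, which left 0 family names. Scaling by all reads of the library, chosen after seeing the data, gave 1.65 for miR-152, 0.657 for miR-148a, 0.819 for miR-148a* and 0.514 for miR-148b, with 0 family names called higher and 1 lower (miR-148b*). It gave a median log2 ratio of -0.19 for the DNA methyltransferase list, with 1 name called lower, and of 0.65 for the HOX list, with 1 called higher, and the family then took 0.0146% of the reads in K562/ADM and 0.0239% in K562. No paired analysis was possible because each cell line has 1 library. Under scaling by the total of the table the ratios were 0.837 for miR-148a and 0.655 for miR-148b, without the 14q32 names 0.858 and 0.672, and with miR-425 as the reference 0.847 and 0.663. Upper-quartile scaling gave 1.54 for miR-148a, 1.92 for miR-148a*, 1.21 for miR-148b, 1.14 for miR-148b* and 3.87 for miR-152, since it raises every ratio alike. The median log2 ratio of the DNA methyltransferase list was 0.16 with the table total, 1.04 with the upper quartile (9 called higher), 0.19 without 14q32, 0.17 with miR-425 and 0.41 without a read minimum. That of the HOX list was 1.00 with the table total (2 called higher), 1.88, 1.03 and 1.01 in the same order of the other scalings, 0.84 without a read minimum or with 50 reads (2 called higher) and 1.58 for the more abundant arms. Without miR-378, the family took 0.142% of the reads in K562/ADM and 0.173% in K562, and without the 14q32 names 0.0891% in K562. Ratios between members, arm shares and the parts of the members moved by less than their counting intervals under the alternatives run for them. Those alternatives were summing both arms, adding 1 read to each arm and using the more abundant arm only. They change few of the reads and could hardly move these values. Of 128 alternative values 86 moved by less than counting error, or by less than 1.5 times for counts and 0.1 for medians, and 42 moved by more. The 43 reads of miR-148b* in K562/ADM and the 107 of miR-152 in K562 limit the precision of those ratios.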
